A study of Mus musculus with 21 samples.

Results

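Granulocyte-macrophage progenitors (GMP) of a Dot1l deletion genotype were compared with LSK cells of that genotype, and both are called Dot1l-deleted below. LSK are mouse bone marrow cells that lack markers of mature lineages and carry Sca-1 and Kit, and they include the stem cells and the earliest progenitors. The arrays were chosen by their titles and genotype labels, which gave 4 arrays of Dot1l-deleted GMP and 6 of Dot1l-deleted LSK out of 21 in the series. The other 11 arrays, 5 of control GMP and 6 of control LSK, gave the same cell type comparison with Dot1l intact. All mice were of the C57/BL6 background and carried Mx-Cre, a recombinase under an interferon-responsive promoter, and all received PIPC, a double-stranded RNA that switches this promoter on. The deleted groups came from Dot1l fl/fl mice, in which the floxed gene is removed after induction, and the controls from Dot1l wt/wt mice, so Mx-Cre and PIPC were common to all 4 groups. Mx-Cre acts in blood cells of many kinds and in other tissues, so a loss of Dot1l would not be limited to the sorted cells. RNA of sorted cells was hybridised to Affymetrix arrays, and levels are given below as the log2 of the deposited intensity, on which a difference of 1 is a factor of 2. The question here was which differences between the cell types remained in the cells labelled as Dot1l-deleted.

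DOT1L is the enzyme that methylates lysine 79 of histone H3, a mark laid down over the bodies of transcribed genes. In leukaemias with MLL rearrangements it is recruited to genes such as Hoxa9 and Meis1, which are also genes of normal stem cells. LSK cells give rise to GMP through a series of steps in which genes of stem cells and of lymphoid priming are turned down and genes of the neutrophil and monocyte lineages, above all those of the primary granules, are turned up.

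The 21 arrays gave 1 value for each of 18194 genes, and their upper quartiles of log2 intensity lay between 6.81 and 7.78. The titles carry a K number for each array without stating that these are separate animals. The p-values measure the spread between these arrays alone, and the number of arrays limits their precision. That spread was pooled over the 4 groups, so it is not the spread of the deleted arrays by themselves. Dot1l-deleted LSK K1272 stood apart: its mean Spearman correlation with the rest of its group was 0.649, against 0.871 to 0.897 for the other 5 arrays, and its upper quartile was the lowest of the series. Dot1l-deleted LSK K1359 carried LSK markers near control levels and, like LSK K1421, was closest to a control LSK array, at 0.951 and 0.971. Dot1l-deleted GMP K1190 and K1272 were nearly alike, with a correlation of 0.988 and upper quartiles of 7.64 and 7.67, against 7.23 and 7.24 in GMP K1359 and K1421. Because of these arrays, values without LSK K1272, LSK K1359 or both are given beside the markers, and beside other results where they end or make a call, turn a sign or move a list's median most. In sorted bulk samples, fewer cells of a type and less RNA per cell cannot be told apart.

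Dot1l itself was measured at similar levels in the 4 groups. Its probe set read 6.29, 5.62, 6.36 and 6.60 on the 4 deleted GMP arrays and 5.95 to 7.01, with a median of 6.32, on the 6 deleted LSK arrays. Control LSK averaged 6.48 ± 0.30 (SD, n = 6) and control GMP 6.74 ± 0.16 (SD, n = 5). The sources used here do not place this probe set inside or outside the floxed exons, and its level is no check of the genotype. Removal of Dot1l was thus not checked on any array, and the word deleted stands for the genotype label.

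Of the GMP sort markers, Fcgr3, an Fc receptor for IgG, was higher in deleted GMP by 2.38 ± 0.45 (SE), with a limma adjusted p of 0.0363. Without LSK K1359 it was higher by 2.29 (adjusted p = 0.0688). Because GMP are sorted on the protein of this gene, the direction of its RNA may be set in part by the sort. Fcgr2b, which encodes the related inhibitory receptor that the same antibody usually stains, was 1.76 ± 0.78 higher without passing the test (adjusted p = 0.606). Cd34 and Kit, the stem cell factor receptor, gave differences of -0.01 ± 0.77 and -0.22 ± 0.62, and both adjusted p-values were 1. They were -0.82 and -0.81 without K1272, and 0.13 and 0.18 without K1359. LSK K1272 was the lowest of its group for both, at 5.20 for Cd34 against 9.52 to 10.38 on the other 5 arrays. Kit was at 5.0 on that array. Sca-1 was not analysed here.

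The GMP markers were near control GMP levels on all 4 deleted GMP arrays. On the deleted LSK arrays Prtn3, Ms4a3 and Cst7 were scattered, and so were the LSK markers Hlf, Flt3, Dntt and Mecom. The LSK marker Procr lay between 6.99 and 8.10 there. Prtn3, which encodes the primary granule protease proteinase 3, read 11.59, 11.72, 11.91 and 11.16 in deleted GMP. In deleted LSK it ran from 7.0 to 11.44 with a median of 10.15, and control LSK averaged 7.79 ± 0.87 (SD, n = 6). The lowest value was that of LSK K1359 and the highest that of K1272, which alone reached into the GMP range. The difference of 1.85 ± 0.61 did not pass the test (limma adjusted p = 0.307), and it was 2.19 without K1272 (adjusted p = 0.0999) and 1.31 without K1359 (adjusted p = 0.441). Ms4a3, a membrane protein gene of granulocyte progenitors, read 11.54, 11.31, 11.03 and 12.32 in deleted GMP against 4.74 to 9.74 in deleted LSK. The groups did not overlap, but at 3.71 ± 0.75 the difference just missed the threshold (adjusted p = 0.0556), which it passed without K1272 (3.22, adjusted p = 0.0397) and without both (2.32, adjusted p = 0.0059) but not without K1359 (3.09, adjusted p = 0.0591). Cst7, the gene of the granule protease inhibitor cystatin F, rose by 3.32 ± 0.59 (adjusted p = 0.0261), and by 3.15 without K1272 (adjusted p = 0.0268) and 2.70 without K1359 (adjusted p = 0.0022).

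**Figure D1:**
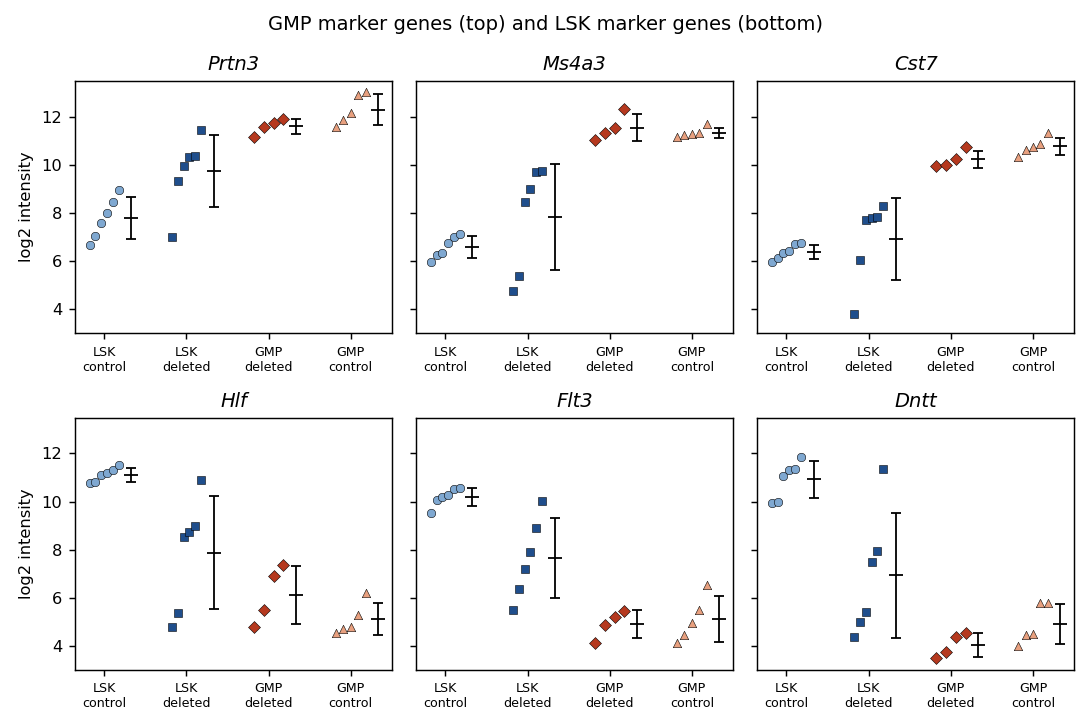
Log2 intensity of 3 GMP markers (top) and 3 LSK markers (bottom) in the 4 groups, with 1 point per array, sorted by level within a group, and the mean and SD beside them (n = 6, 6, 4 and 5 from left to right). Deleted GMP arrays lie together for the GMP markers, whereas deleted LSK arrays are spread widely, as for Dntt from 4.39 to 11.37, and reach below every control LSK array for Cst7 (3.82) and Ms4a3 (4.74).

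Elane, Ctsg and Mpo encode the other major proteins of the primary granule. All 3 were without overlap and higher in deleted GMP, by 2.62 ± 0.57 for Elane (adjusted p = 0.077), 1.59 ± 0.48 for Ctsg (adjusted p = 0.242) and 0.72 ± 0.20 for Mpo (adjusted p = 0.165). Elane passed the test without K1272 (2.74, adjusted p = 0.0417) and without K1359 (2.01, adjusted p = 0.0168). Ctsg differed by 0.89 without both arrays. Mpo was already at 12.41 to 13.36 in deleted LSK, against 13.65 to 14.01 in deleted GMP.

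Among the LSK markers, Hlf, a stem cell transcription factor gene, was at 5.49, 4.78, 7.35 and 6.90 in deleted GMP. In deleted LSK it ran from 4.80 to 10.90 with a median of 8.63, and the groups overlapped. The difference was -1.75 ± 0.85 (limma adjusted p = 0.697), and in controls it was -6.01 ± 0.80. The deleted difference was -2.37 without K1272 (adjusted p = 0.185) and -1.15 without K1359 (adjusted p = 0.944). Flt3, a receptor of multipotent and lymphoid progenitors, lay at 4.14 to 5.45 in deleted GMP and at 5.51 to 10.02 in deleted LSK, without overlap, and differed by -2.73 ± 0.64 (adjusted p = 0.102). It passed without K1272, at -3.16 (adjusted p = 0.0196), and not without K1359, at -2.26 (adjusted p = 0.172). Dntt, the terminal transferase gene of lymphoid progenitors, differed by -2.90 ± 0.92 (adjusted p = 0.284), or -3.20 without K1272 and -2.01 without K1359. Mecom and Procr, genes of stem cells, differed by -1.65 ± 0.74 (adjusted p = 0.61) and -2.22 ± 0.49 (adjusted p = 0.0796). Without K1272 these were -2.02 and -2.23, and without K1359 -1.08 and -2.19. On LSK K1359, Hlf, Flt3, Dntt and Mecom were each the highest of the 6 deleted LSK arrays, and the 3 GMP markers Prtn3, Ms4a3 and Cst7 were each the lowest. For Prtn3, Ms4a3 and Cst7 every deleted GMP array was above every control LSK array. Against its LSK label, K1272 held Hlf at 4.80, Flt3 at 5.51 and Dntt at 5.42, in the range of control GMP. It held Prtn3 high at 11.44, but Ms4a3 at 5.37 and Cst7 at 6.07, far below every GMP array. The markers thus gave K1272 neither label, its upper quartile of 6.81 was the lowest, and the part of RNA quality or cell content in this was not tested.

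Promoters are shown for the granule genes Prtn3, Elane and Mpo and for the Fc receptor gene Fcgr3, all higher in deleted GMP. Each of these held the GAGGAAG motif marked below. Most primary granule genes with a sequence did not hold it, and theirs are not shown. Prtn3 and Elane lie next to each other on the chromosome. The sequences are the 250 bases before the transcription start from RefSeq (GRCm38.p6), written 5′ to 3′ on the gene's strand, with GAGGAAG, the core of a site that PU.1 can bind, or its reverse complement in capitals. They come from chr10:79879417-79879666 (+ strand) for Prtn3, chr10:79886062-79886311 (+) for Elane, chr11:87793534-87793783 (+) for Mpo and chr1:171059404-171059653 (- strand) for the first of 2 starts of Fcgr3.
Prtn3: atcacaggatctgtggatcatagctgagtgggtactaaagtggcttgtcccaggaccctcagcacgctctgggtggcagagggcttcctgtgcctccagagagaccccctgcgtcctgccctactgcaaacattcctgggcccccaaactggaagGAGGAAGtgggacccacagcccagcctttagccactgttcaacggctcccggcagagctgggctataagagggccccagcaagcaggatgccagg
Elane: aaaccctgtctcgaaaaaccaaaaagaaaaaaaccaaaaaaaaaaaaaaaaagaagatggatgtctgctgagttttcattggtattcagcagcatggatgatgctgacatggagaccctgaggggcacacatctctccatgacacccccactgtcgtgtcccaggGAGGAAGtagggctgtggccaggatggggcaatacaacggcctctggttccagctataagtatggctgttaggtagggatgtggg
Mpo: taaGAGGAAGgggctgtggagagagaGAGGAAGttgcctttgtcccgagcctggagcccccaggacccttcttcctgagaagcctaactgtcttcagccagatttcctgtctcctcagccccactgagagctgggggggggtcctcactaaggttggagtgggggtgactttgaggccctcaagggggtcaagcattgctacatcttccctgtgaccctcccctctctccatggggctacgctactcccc
Fcgr3: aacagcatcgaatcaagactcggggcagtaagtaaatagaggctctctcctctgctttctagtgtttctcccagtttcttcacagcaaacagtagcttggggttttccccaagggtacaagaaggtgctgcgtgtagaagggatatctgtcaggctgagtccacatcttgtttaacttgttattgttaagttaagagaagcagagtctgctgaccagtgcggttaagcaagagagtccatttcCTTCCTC

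Counted in bases from the start, the match began at position -95 in Prtn3 and at -85 in Elane. Mpo held 2 matches, at -247 and -224, and in Fcgr3 the match lay directly before the start, at -7. Searched on both strands, GAGGAAG was in the windows of 5 of 13 primary granule genes with a sequence (Ctsc, Ctsg, Elane, Mpo and Prtn3). It was in 1 of 7 genes called higher in deleted GMP and in 4 of 12 called lower. Over all 27025 genes with a window the share was 12%, and over all 32851 promoter windows of this length 10.6%. TTGCNNAA, a loose form of the C/EBP site, was in 2 of the 13, in 1 of the 7 and in 1 of the 12, against 10.8% of all genes and 9.56% of all windows. TTGCGCAA, which is contained in the former, and TTACGTAA, a site of HLF, were in none of these genes' windows, and in 0.164% and 0.113% of all windows. The motifs were chosen after the values were seen, and a match is a stretch of letters, not a measured site.

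Between deleted GMP and deleted LSK, 26 of 18194 genes passed the limma test at an adjusted p of 0.05, which is 0.143% of the genes tested. Of these, 9 were higher in GMP (0.0495% of genes) and 17 lower (0.0934%). In the controls, 2180 genes passed (12%), 1279 higher (7.03%) and 901 lower (4.95%), a count that was 5531 without deleted LSK K1272, 1111 without control LSK K1601, 1368 without K1603, 1325 without K1604, 1212 without control GMP K1603 and 1452 without control GMP K1604. For 25 of the 26 genes the 4 GMP arrays and the 6 LSK arrays did not overlap, as was the case for 369 genes overall (2.03%), 200 of them higher in GMP (1.10%) and 169 lower (0.929%). Without LSK K1272, 110 genes passed (0.605%), among them all 26. Without LSK K1359, 20 passed (0.110%), 14 of them from the 26, and without both arrays 51 passed, 18 of them from the 26. Other arrays moved the count as far: it was 4 without LSK K1422, 5 without GMP K1190, 7 without GMP K1272, 11 without LSK K1091, 12 without control LSK K1601, 13 without control GMP K1581 and 16 without control LSK K1603, but 93 without GMP K1359 and 104 without GMP K1421. With GMP K1190 and K1272 averaged as 1 array, it was 5. When the fit held only the deleted LSK and GMP arrays, 1 gene passed.

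**Figure D2:**
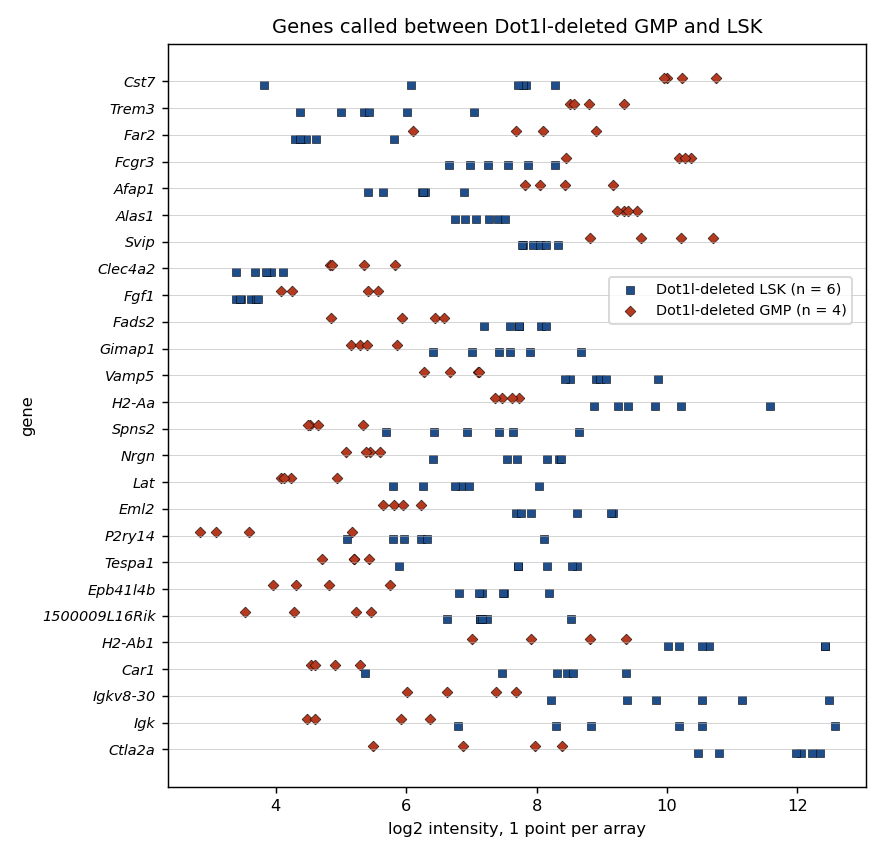
Log2 intensity of the 26 genes that passed the test between Dot1l-deleted GMP (diamonds, n = 4) and Dot1l-deleted LSK (squares, n = 6), with 1 point per array and genes ordered by their difference. P2ry14 was the only one of the 26 whose groups overlapped.

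Of the 9 genes that rose in deleted GMP, Cst7 was the 1 on the primary granule list. Cst7 read 10.23, 10.01, 9.95 and 10.75 on the GMP arrays and 3.82 to 8.28, with a median of 7.76, on the LSK arrays. Trem3, an activating receptor of myeloid cells, read 8.80, 8.51, 8.57 and 9.34 against 4.38 to 7.04, with a median of 5.39. Every GMP array was above every LSK array for both, and Trem3 rose by 3.27 ± 0.53 (limma adjusted p = 0.0208). Fcgr3 read 10.18, 10.37 and 10.28 on 3 GMP arrays but 8.46 on K1421, close to the highest LSK value of 8.29. Clec4a2, a C-type lectin receptor of myeloid cells, was low throughout, at 4.83, 5.36, 4.86 and 5.82 in GMP and 3.40 to 4.11 in LSK, and rose by 1.41 ± 0.24 (adjusted p = 0.0219). In controls the difference of Clec4a2 was 0.49 ± 0.22 and did not pass the test.

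Alas1, the first enzyme of heme synthesis outside the red cell lineage, had close values within each group. It read 9.34, 9.54, 9.23 and 9.40 in deleted GMP and 6.75 to 7.51, with a median of 7.17, in deleted LSK. It rose by 2.23 ± 0.33 (limma adjusted p = 0.00887), and by 2.25 without K1272 and 2.14 without K1359. The same step in controls was 3.06 ± 0.31. Far2, a fatty acyl-CoA reductase, read 7.68, 8.10, 6.10 and 8.91 in GMP and 4.30 to 5.81 in LSK, and rose by 3.04 ± 0.53 (adjusted p = 0.0248). Svip, a small inhibitor of the disposal of misfolded proteins from the endoplasmic reticulum, rose by 1.82 ± 0.35 (adjusted p = 0.0411). Afap1, an actin filament-associated protein, rose by 2.25 ± 0.40 (adjusted p = 0.0261), and only 1 of its 2 other probe sets had the same sign. Fgf1, a fibroblast growth factor, read 5.41 and 5.57 on GMP K1190 and K1272 but 4.08 and 4.24 on K1359 and K1421, just above the LSK range of 3.38 to 3.72. It rose by 1.27 ± 0.25 (adjusted p = 0.0415), with a control difference of 0.20 ± 0.23. Without K1359, Svip, Fgf1 and Fcgr3 no longer passed (adjusted p = 0.0688, 0.0663 and 0.0688), though their differences were similar, at 1.83, 1.29 and 2.29.

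The called gene that fell most in deleted GMP was Ctla2a, an inhibitor of cysteine proteases that is abundant in stem cells. It read 8.40, 7.98, 5.50 and 6.87 in deleted GMP and 10.48 to 12.35, with a median of 12.01, in deleted LSK. The groups were far apart, and Ctla2a fell by 4.46 on the log2 scale (SE 0.65, limma adjusted p = 0.00887), against -5.55 ± 0.61 in controls. Vamp5, a protein of vesicle membranes, had the smallest adjusted p of all genes, 0.00159. It read 7.10, 6.67, 6.27 and 7.12 in GMP and 8.43 to 9.86, with a median of 8.94, in LSK, and fell by 2.17 on the log2 scale (SE 0.27). In controls Vamp5 differed by -0.54 ± 0.25 (adjusted p = 0.136), and the test of the difference between these steps gave an adjusted p of 0.143.

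The immunoglobulin kappa probe sets Igk and Igkv8-30 had the next largest falls among the called genes. Igk read 6.36, 5.92, 4.48 and 4.60 in deleted GMP and 6.79 to 12.57, with a median of 9.51, in deleted LSK, where K1359 was the highest and K1272 the lowest. Igk fell by 4.20 (limma adjusted p = 0.0363) and Igkv8-30 fell by 3.34 (adjusted p = 0.0433). Without K1359, Igkv8-30 did not pass, at -2.90 (adjusted p = 0.0688). Over the 41 alternative runs the Igk difference ranged from -5.55 to -0.58, and it passed in 27. Of the 3 other probe sets of Igk, 2 had the same sign. Kappa genes are near-identical copies that such probe sets cannot separate, so the assignment to 1 gene is uncertain. The B lineage list had 0 of 11 measured members called, and its mean level was 4.88 to 5.59 in deleted LSK and 4.47 to 5.33 in deleted GMP. Of that list, Cd79a, a part of the B cell receptor, averaged 4.50 in deleted LSK and 4.29 in deleted GMP, and the part of such cells in the result was not tested.

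Genes of antigen presentation fell as well. H2-Ab1 and H2-Aa encode the 2 chains of an MHC class II molecule. H2-Ab1 read 8.82, 7.92, 7.01 and 9.38 in deleted GMP and 10.01 to 12.43, with a median of 10.59, in deleted LSK. H2-Aa read 7.47, 7.73, 7.37 and 7.63 against 8.88 to 11.57, with a median of 9.61. The GMP values of H2-Aa were close to each other, and LSK K1422 was the highest array for both genes. H2-Ab1 fell by 2.76 (SE 0.54, limma adjusted p = 0.042) and H2-Aa fell by 2.31 (SE 0.44, adjusted p = 0.0363). Without LSK K1359 H2-Ab1 and H2-Aa missed the threshold, at -2.85 and -2.32, with an adjusted p of 0.0592 for each. Cd74, the invariant chain, and H2-Eb1 did not overlap between the groups either, at -2.65 ± 0.62 (adjusted p = 0.102) and -2.03 ± 0.50 (adjusted p = 0.118). These 2 falls and no rises were the calls among 13 measured genes of MHC class II and dendritic cells, whose median difference was -0.16, against 0.01 over all genes. Without K1272 these medians were -0.015 and 0.10. Ciita, the activator of class II genes, and Itgax, a dendritic cell integrin, differed by 0.24 ± 0.25 and 0.13 ± 0.54.

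Lat and Tespa1, adaptors of T cell receptor signalling that are also found in other blood cells, and Gimap1, a GTPase of lymphocytes, fell in deleted GMP. Lat read 4.24, 4.07, 4.13 and 4.93 against 5.79 to 8.03, and fell by 2.43 (SE 0.43, limma adjusted p = 0.0261). Tespa1 fell by 2.64 (adjusted p = 0.0372) and Gimap1 fell by 2.08 (adjusted p = 0.0363). Without K1359 Tespa1 and Gimap1 did not pass, at -2.47 and -1.84 (adjusted p = 0.0735 and 0.0592). Without both K1272 and K1359 Lat missed the threshold, at -2.07 (adjusted p = 0.0508). No deleted GMP array reached the level of any deleted LSK array for these 3 genes. The T and NK cell list had 0 of 10 measured members called, with Cd3e, a chain of the T cell receptor complex, at 3.11 in deleted LSK and 3.07 in deleted GMP.

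The remaining genes that fell have varied roles. Car1, a carbonic anhydrase of early red cell progenitors, read 4.91, 5.30, 4.53 and 4.60 in deleted GMP and 5.37 to 9.37, with a median of 8.39, in deleted LSK, where K1272 was the low array. It fell by 3.09, at the edge of the threshold (limma adjusted p = 0.0499), and fell by 3.60 without K1272 (adjusted p = 0.00541). It did not pass without K1359, at -3.18 (adjusted p = 0.0688). P2ry14, a receptor for UDP-glucose on progenitors, fell by 2.58 (adjusted p = 0.0338), with GMP K1359 at 5.17 just above LSK K1190 at 5.10. Fads2, a fatty acid desaturase, fell by 1.79, and its control difference was also -1.79. Spns2, a transporter of sphingosine-1-phosphate, fell by 2.38 and Nrgn, a calmodulin-binding protein, fell by 2.38. Epb41l4b, a membrane skeleton protein, fell by 2.67 and 1500009L16Rik fell by 2.68. The other probe set of 1500009L16Rik had the opposite sign, and only 1 of the 2 other probe sets of Epb41l4b had the same sign. Without K1359, Spns2, 1500009L16Rik and Eml2 no longer passed (adjusted p = 0.0735, 0.0569 and 0.0735), at differences of -2.32, -2.71 and -2.32. Eml2, a microtubule-associated protein, read 5.81, 6.23, 5.64 and 5.95 in deleted GMP and 7.69 to 9.17 in deleted LSK, and fell by 2.47 (adjusted p = 0.0372). In controls Eml2 was higher in GMP, by 0.65 ± 0.44, which made it the only one of the 26 with opposite signs; the difference between these steps was -3.12 ± 0.65 (adjusted p = 0.114).

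Set beside the controls, 21 of the 26 genes passed the test in the same direction in both, which is 80.8% of the calls in deleted cells and 0.963% of those in controls. The 2 comparisons share no array, but both came from 1 fit with a common estimate of each gene's spread, so they are not independent. With each comparison fitted on its own arrays, 1 gene passed in deleted cells, and it was shared. The 5 genes that passed in deleted cells alone were Clec4a2, Fgf1, Vamp5, Eml2 and H2-Ab1, and the difference of the steps passed for none of the 26, with a smallest adjusted p of 0.114. The step was smaller than in controls for 15 of the 26 and larger for 11. Without K1272, 70 of 110 calls were shared.

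Over all genes and with all arrays kept, the step from LSK to GMP was smaller in deleted cells. The median absolute difference was 0.24 in deleted cells and 0.53 in controls, while the median SE was 0.37 and 0.35. With its sign, the median was 0.01 in deleted cells and 0.29 in controls, where quantile normalization made it 0.20. The control values thus include a shift over all genes. Control GMP K1601 and K1603 had upper quartiles of 6.95 and 6.96, and the part of such shifts in the smaller step was not tested. A difference of over 1 was seen for 1591 genes in deleted cells and 3704 in controls. Of the 1279 genes higher in control GMP, 934 (73.0%) were also higher in deleted GMP, 7 of them called, and their median difference was 0.16 against 1.13 in controls. Of the 901 lower in control GMP, 673 (74.7%) were also lower, 14 of them called, with a median of -0.43 against -2.08. Genes that were not called in controls had the same sign in both steps in 52.7% of cases. Because the 2180 genes were picked for their control difference, their larger control values are in part fixed by that choice. Without K1272 the shares were 87.7% and 87.6%, the medians 0.31 and -0.68, and the share among genes not called was 72.6%. Without K1359 the shares were 62.6% and 67.8%. The 50 genes with the largest control rise had a median of 1.40 in deleted cells against 3.40, and the 50 with the largest fall -1.46 against -3.999, with 47 and 44 in the control direction. LSK K1272 and GMP K1190 and K1272 were also left out together, a choice made after the data were seen. The median with its sign over all genes was then 0.26 in deleted cells and 0.29 in controls. In deleted cells 1554 genes then passed, 984 of them shared with controls. The size of this median thus depended on the arrays kept.

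**Figure D3:**
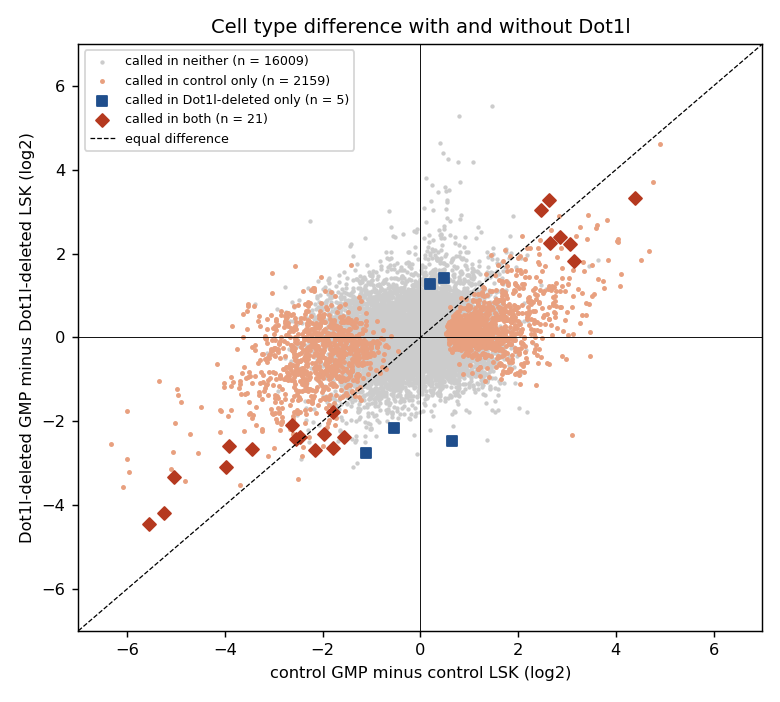
Log2 difference between GMP and LSK for each of the 18194 genes, in controls (horizontal) and in Dot1l-deleted cells (vertical), coloured by the comparison in which a gene passed the test; the dashed line marks equal differences. The 21 genes that passed in both lie at the lower left and the upper right, and most genes that passed in controls alone lie nearer to 0 on the vertical axis than on the horizontal axis.

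The genes with the largest control steps were picked for these, and their deleted steps are given as a description. Tmem178, a membrane protein gene, read 5.41, 6.97, 4.64 and 4.52 in deleted GMP and 2.69 to 3.63 in deleted LSK, without overlap. Its difference of 2.06 ± 0.46 (limma adjusted p = 0.0796) stood beside 4.67 ± 0.43 in controls. Mgam, a maltase-glucoamylase gene, differed by 4.60 ± 1.01 (adjusted p = 0.077) and by 4.90 ± 0.94 in controls, and LSK K1190 was high at 7.39 where the other 5 LSK arrays were at 2.81 to 3.84. F2r, the thrombin receptor, differed by -3.56 ± 0.83 (adjusted p = 0.10), against -6.08 ± 0.78. Gcnt2, a glycosyltransferase, differed by -2.53 ± 0.87 (adjusted p = 0.345) and -6.33 ± 0.81, and Car2, a carbonic anhydrase, by -3.22 ± 0.81 (adjusted p = 0.133) and -5.97 ± 0.76. Without K1272, F2r, Gcnt2 and Car2 passed the test, with an adjusted p of 0.0335, 0.0196 and 0.0123.

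On each array, the mean level of the 1279 genes and of the 901 genes shows where the deleted cells lay. The mean of the 1279 genes was 5.56 to 6.03 in control LSK, 5.63 to 6.88 in deleted LSK, 6.26 to 6.70 in deleted GMP and 6.995 to 7.44 in control GMP. For the 901 genes the ranges were 7.98 to 8.40, 6.18 to 8.22, 6.61 to 7.38 and 5.74 to 6.31. The control ranges are apart by the choice of genes, whereas deleted LSK and deleted GMP overlapped on both measures. LSK K1272 lay on the GMP side of all 4 GMP arrays, at 6.88 and 6.18. The other 5 deleted LSK arrays reached from 5.63 to 6.27 for the 1279 genes, which still overlapped through GMP K1272 at 6.26, and for the 901 genes they did not overlap with deleted GMP. GMP K1190 and K1272 were on the LSK side of GMP K1359 and K1421 for both, and these pairs also differed in upper quartile; the part of the upper quartile in this was not tested for the means. When the arrays' upper quartiles entered the fit as a covariate, 58 genes passed between deleted GMP and LSK, 29 in each direction.

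**Figure D4:**
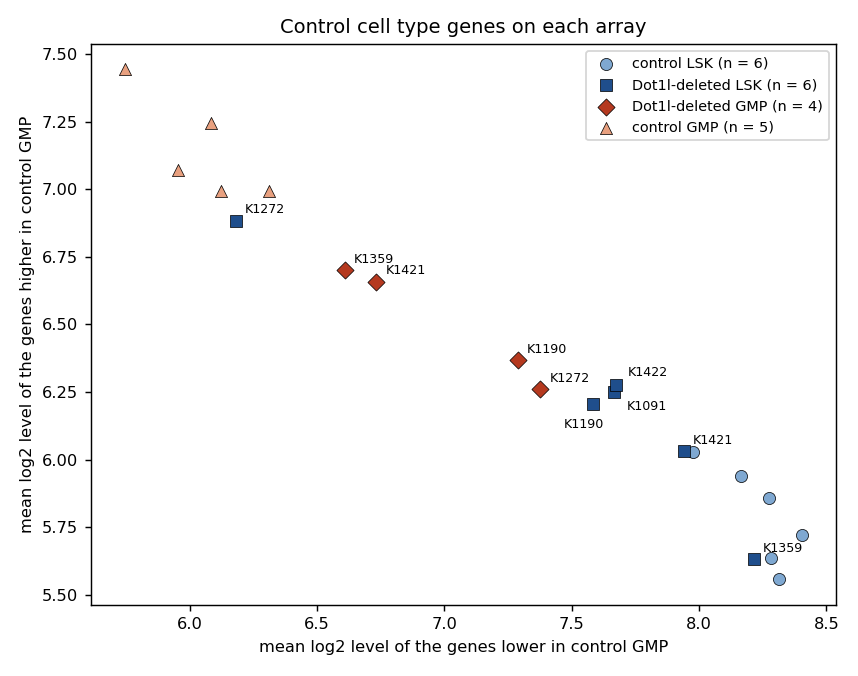
Mean log2 level of the 901 genes lower in control GMP (horizontal) and of the 1279 genes higher in control GMP (vertical) on each of the 21 arrays, with the K number beside the Dot1l-deleted arrays. Deleted GMP arrays lie between control LSK and control GMP, and deleted LSK K1272 lies beside control GMP, at 6.18 and 6.88.

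For 6 genes the step itself differed between deleted and control cells (0.0330% of those tested). Dtx3l, a ubiquitin ligase of the interferon and DNA damage responses, read 8.21, 8.08, 7.76 and 7.99 in deleted GMP and 6.40 to 8.24 in deleted LSK. Control GMP averaged 5.34 ± 0.70 (SD, n = 5) and control LSK 8.19 ± 0.56 (SD, n = 6). The deleted step minus the control step was 3.39 ± 0.54 (limma adjusted p = 0.0196). Smurf2, a ubiquitin ligase of TGF-beta signalling, had deleted GMP at 8.40 to 9.36, deleted LSK at 7.68 to 9.34 and control GMP at 6.39 ± 1.0 (SD, n = 5), with a difference of steps of 3.13 ± 0.54 (adjusted p = 0.0331). Fbxl12, an F-box protein, differed by 3.17 ± 0.53 (adjusted p = 0.0297): it was 1.74 ± 0.39 higher in deleted GMP and -1.43 ± 0.36 in controls. For both Dtx3l and Smurf2 the deleted groups overlapped.

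Fdps, the farnesyl diphosphate synthase of the cholesterol pathway, gave the largest difference of steps among these 6, -3.92 ± 0.55 (limma adjusted p = 0.0131). It averaged 4.64 ± 0.30 (SD, n = 6) in control LSK and 8.12 ± 0.68 (SD, n = 5) in control GMP, but 4.94 to 6.65 in deleted GMP and 5.65 to 7.71 in deleted LSK. Emc8, a subunit of the complex that inserts membrane proteins, differed by -3.49 ± 0.56 (adjusted p = 0.0196) and Wrap53, a telomerase holoenzyme protein, by -2.62 ± 0.39 (adjusted p = 0.016). The other probe sets of Fdps and Emc8 had the opposite sign in deleted cells, and only 1 of the 2 others of Smurf2 had the same sign. Without K1272, 15 genes passed for the difference of steps, without K1359 21, and without both 80. The count was 13 without GMP K1359 and 1 without GMP K1190, or with GMP K1190 and K1272 averaged, and control GMP arrays moved it to 3 (K1603 left out) and 10 (K1601 left out).

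The 8 genes chosen for a large difference of steps among those that passed in controls alone included Emc8 and Fdps. For Kifap3, a kinesin-associated protein, Ap3b1, an adaptor of lysosomal sorting, Dnajb4, a chaperone, and Vldlr, a lipoprotein receptor, the control step was -3.53, -2.56, -3.04 and -5.34, and the deleted step 0.79, 1.71, 1.55 and -1.05. Vldlr read 8.80 and 9.58 on GMP K1190 and K1272 but 3.68 and 3.44 on K1359 and K1421, and was between 4.11 and 10.14 in deleted LSK. For S100a1, a calcium-binding protein, and Zfp771, a zinc finger protein, the control step was 2.98 and 3.09, and the deleted step -0.52 and -2.32. None of these 6 passed for the difference, with adjusted p-values from 0.0712 for Kifap3 to 0.328 for Vldlr by limma.

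Gene lists of cell programs were set beside the all-gene values, as counts and medians without a test of the list. In deleted cells 6 of 36 lists held a called gene, and 7 of the 26 called genes (26.9%) were on a list, as were 575 of all genes (3.16%). In controls 33 lists held a called gene. Over all genes 0.143% were called in deleted cells, and 7.03% higher and 4.95% lower in controls. A list of this size without a call in deleted cells is thus near the share over all genes, and its lack of calls is no trait of the program. The list members are not replicates of a condition, and the counts are a description.

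Primary granule genes were higher in deleted GMP as a group in level, with few calls. Of 15 measured, 14 had a positive difference, 12 did not overlap between the groups, against 1.10% of all genes higher without overlap, and 1 (Cst7) was called. The median was 1.60, against 0.01 over all genes, and in controls it was 2.12 with 11 called and 0.29 over all genes. The mean of the 15 genes was 11.32, 11.33, 11.36 and 11.37 on the deleted GMP arrays, within the 11.21 to 11.74 of control GMP. In deleted LSK it was 8.31 to 10.38, reaching above the 8.62 to 9.95 of control LSK on 4 arrays. Fcnb, the ficolin of granules, differed by 1.97 ± 0.43 (limma adjusted p = 0.077). Fcnb passed without K1272 (adjusted p = 0.0411). Without K1272 4 of the list were called, without K1359 2, and without both 3, with a median of 0.91.

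Of 14 myeloid transcription factor genes, 0 were called in deleted cells, and 4 higher and 1 lower in controls. The median was 0.11 in deleted cells and 0.89 in controls, and in deleted cells it was 0.34 without K1272 and -0.026 without K1359. Gfi1, a repressor needed for neutrophils, read 9.76, 10.16, 10.32 and 9.69 in deleted GMP and 3.84 to 8.88 in deleted LSK, where K1272 was the low array. The groups did not overlap, and the difference was 2.40 ± 0.66 (limma adjusted p = 0.175) with K1272 and 1.66 without it (adjusted p = 0.0214). Egr2 and Klf4, transcription factors of monocytes, and Id2, an inhibitor of basic helix-loop-helix factors, differed by 0.73 ± 0.30, 0.74 ± 0.37 and -1.21 ± 0.60. Cebpa, the factor on which GMP formation depends, was named after its values were seen: it averaged 9.60 in deleted LSK and 9.95 in deleted GMP, against 7.88 in control LSK and 11.15 in control GMP. Its deleted step was 0.35 ± 0.59 and its control step 3.27 ± 0.56, but the difference did not pass (adjusted p = 0.19).

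Monocyte genes gave 0 calls of 16 in deleted cells and 4 in controls, with medians of 0.92 and 0.85, and 0.57 in deleted cells without both LSK arrays. Ly86, a partner of a toll-like receptor homologue, and F13a1, a coagulation factor subunit of monocytes, differed by 2.57 ± 0.89 (limma adjusted p = 0.352) and 2.41 ± 1.02 (adjusted p = 0.586). F13a1 was at 4.68 on LSK K1272 and 4.27 on LSK K1359 but at 8.34 to 9.81 on the other 4 deleted LSK arrays, and without both it differed by 0.88. Cx3cr1, the fractalkine receptor, and Ms4a6c, a membrane protein of monocytes, differed by 0.91 ± 0.31 and 1.86 ± 0.73.

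Stem cell transcription factors leaned toward deleted LSK without a call. Of 20 measured, 18 had a negative difference and 0 were called, and the median was -0.80, or -1.12 without K1272 and -0.44 without K1359. In controls 10 were called lower and the median was -1.65. The mean of the list was 6.67, 6.69, 6.85 and 6.74 on the deleted GMP arrays and 6.91 to 8.58 on the deleted LSK arrays, without overlap, and K1272 was the lowest of the latter. Gata2, a stem and mast cell factor, and Tal1, a factor that specifies blood cells, differed by -1.69 ± 0.53 (limma adjusted p = 0.271) and -1.47 ± 0.47 (adjusted p = 0.282). Gfi1b, a repressor of red cells and platelets, and Ndn, an imprinted gene of quiescent stem cells, did not overlap, at -1.95 ± 0.56 (adjusted p = 0.206) and -1.90 ± 0.59 (adjusted p = 0.262). Of the MLL fusion targets, Hoxa9 differed by 0.13 ± 0.79, Hoxa10 by -0.07 ± 0.52 and Meis1 by -1.45 ± 0.74. Hoxa9 was at 3.49 on LSK K1272, and its sign turned without that array, to -0.60, while it was 0.70 without K1359. Hoxa10 was 0.051 without K1272 and 0.23 without K1359, and Meis1 was -0.88 without K1359.

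Of 20 stem cell surface genes, Ctla2a alone was called in deleted cells, against 6 lower and 1 higher in controls, and the median was -0.51 against -1.32. Angpt1, the ligand of the receptor TIE2, read 6.20, 6.58, 4.60 and 4.27 in deleted GMP and 6.44 to 10.31 in deleted LSK, and differed by -3.15 ± 0.67 (limma adjusted p = 0.0722). Thy1, a surface glycoprotein of T cells and of some stem cells, differed by -3.09 ± 0.67 (adjusted p = 0.077), with LSK K1359 low at 5.69. Thy1 passed without K1359 (adjusted p = 0.0143) and Angpt1 without K1272 (adjusted p = 0.0128). With K1272 left out 3 of the list were called, and with K1359 left out 2.

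Lymphoid priming genes gave 0 calls of 17 in deleted cells and 7 lower in controls, with medians of -0.24 and -1.22. Without K1272 the deleted median was -0.51 and 1 member was called. Bcl11a, a factor needed for lymphoid progenitors, differed by -0.83 ± 0.39 and Lax1, an adaptor of lymphocytes, by -0.88 ± 0.38. The Gimap family, GTPases encoded side by side and used in lymphocytes, were all 8 negative, with Gimap1 called. Their median was -1.27, and -2.33 in controls with 5 called. Gimap6 was at 5.14 to 5.60 in deleted GMP and from 5.56 to 10.37 in deleted LSK, a difference of -2.77 ± 0.63 (limma adjusted p = 0.0929, or 0.0335 without K1272). The family mean was 4.35 to 4.80 in deleted GMP and 4.93 to 7.39 in deleted LSK, and K1359 was the highest. Without K1272 3 of the family were called, and without K1359 0.

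Genes of secretion and respiration were mostly positive in deleted cells. None was called, where 0.0495% of all genes were called higher. All 22 measured genes of endoplasmic reticulum folding and secretion had a positive difference, with a median of 1.02, and 0 were called. In controls 9 were called higher and 1 lower, with a median of 0.78. Xbp1, the factor that drives this program, read 8.34 to 8.76 in deleted GMP and 5.74 to 8.32 in deleted LSK, and differed by 1.34 ± 0.43 (limma adjusted p = 0.291). Manf, a secreted protein of the stress response, differed by 1.37 ± 0.43, Sec61b, a translocon subunit, by 1.21 ± 0.44, and P4hb, a disulfide isomerase, by 0.92 ± 0.29. The median of the list was 0.62 without K1272 and 0.46 without both arrays. Of 41 oxidative phosphorylation genes, 33 were positive and 0 called, with a median of 0.46, against 18 called higher and 0.97 in controls. The deleted median was 0.28 without K1359 and 0.15 without both arrays. Ndufb3 and Ndufa4, subunits of the respiratory chain, differed by 1.30 ± 0.40 (adjusted p = 0.264) and 0.66 ± 0.26 (adjusted p = 0.539). The mean of these genes was 9.68 on LSK K1359 and 10.61 to 11.04 on the other 5 deleted LSK arrays, against 11.005 to 11.08 in deleted GMP.

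Of the 8 measured heme synthesis genes, Alas1 was the 1 called, and the median of the list was 0.03, or -0.068 without K1272. Alad, Cpox and Uros, which act at later steps, differed by -1.01 ± 0.44, 0.73 ± 0.53 and -1.12 ± 0.46, none past the limma threshold.

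Markers of other lineages were also set side by side. Of 13 erythroid genes, Car1 was called, with a list median of -0.87 in deleted cells and -0.89 in controls, and -0.56 in deleted cells without both LSK arrays. The list mean was 5.54 to 6.31 in deleted GMP and 6.73 to 7.52 in deleted LSK, without overlap. Gata1 and Klf1, the main red cell transcription factors, were lower in deleted GMP by -1.97 ± 0.42 (limma adjusted p = 0.076) and -2.48 ± 0.60 (adjusted p = 0.115). Gata1 passed without K1272 (adjusted p = 0.0341) and Klf1 without K1359 (adjusted p = 0.0293). LSK K1272 was the highest array for both, at 7.88 and 9.69, and Hba-a1, a globin gene, averaged 4.06 in deleted LSK and 4.09 in deleted GMP. Megakaryocyte and platelet genes were negative for 14 of 15, with 0 called and list means of 4.78 to 5.17 in deleted GMP and 5.19 to 6.17 in deleted LSK. Macrophage genes overlapped, at 4.71 to 5.19 and 4.29 to 5.10, as did endothelial and stromal genes, at 4.87 to 5.29 and 4.84 to 5.13. The part of other cells in the results was not tested.

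**Figure D5:**
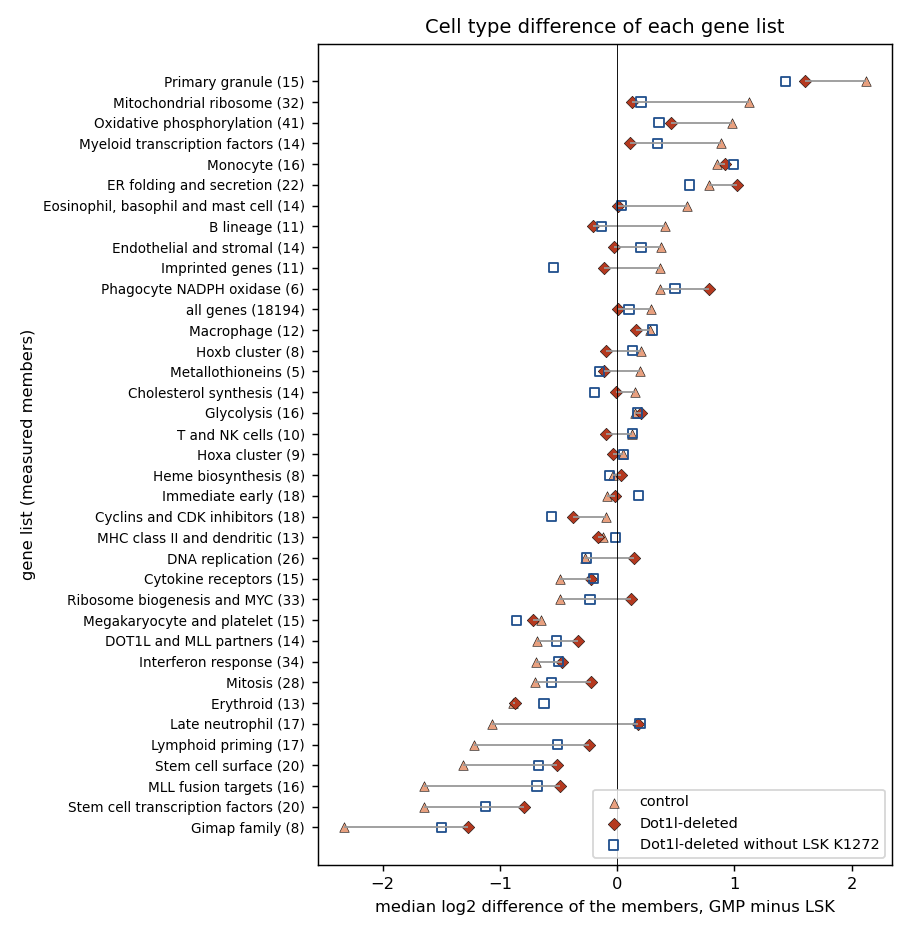
Median log2 difference between GMP and LSK of the measured members of each of 36 gene lists and of all genes, in controls (triangles), in Dot1l-deleted cells (diamonds) and in Dot1l-deleted cells without LSK K1272 (open squares). Primary granule genes have the highest median in both, at 2.12 and 1.60, and Gimap genes the lowest, at -2.33 and -1.27.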

How the data were processed

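The authors deposited 1 table of linear intensities for 45101 probe sets on 21 arrays. Per the submitters' processing notes these came from RMA, for which the sources used here give no version and no genome build. That the scale is linear was read from the values, since array medians lay between 25.19 and 31.48. No scanner files were used here. The log2 of each intensity was taken without a pseudocount or further normalization.

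Of the probe sets, 34958 had 1 symbol in the platform annotation, 932 several and 9211 none, and those with 1 symbol stood for 18194 genes; of several probe sets, the one of highest mean was kept. RefSeq promoter windows (GRCm38.p6) were matched by symbol.

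Differences were tested with limma 3.58.1 (R 4.3.3) in a single fit of the 21 arrays with a mean for each of 4 groups and no covariate, and p-values were adjusted by Benjamini-Hochberg across the 18194 genes, at a threshold of 0.05. The contrasts were GMP against LSK in deleted cells, in controls, and their difference. All 36 gene lists, the markers and the arrays compared were chosen with earlier results of these data known.

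Genes were named by rule: the 12 largest differences each way among called genes without overlap, the genes called for the difference of steps, the 5 largest control steps each way, 4 each way called in 1 step alone with the largest difference, up to 4 members of a described list with the smallest p, the cell type markers, the sort markers, and Dot1l, Hoxa9, Hoxa10 and Meis1. The called genes left over, Fads2 and P2ry14, and 6 genes named beside the lists (Cebpa, Cd79a, Cd3e, Ciita, Itgax and Hba-a1) were added after their values were seen.

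Data for the deleted comparison over 18194 genes were simulated with independent normal noise, whose SD for a gene was the same on all arrays. On these, the fit called 60 of 100 genes with a set log2 change of 2, 11 of 100 with a change of 1, and 1 unchanged gene. The simulation held no outlying array and no pair of close arrays, so its counts do not give the performance of the test on the real arrays. The 41 alternatives were 21 that leave out 1 array and 20 others in array choice, scaling, filters, probe sets, variance model and replicate block, 3 of them added after the data were seen.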

Additional observations from a re-analysis of the deposited data

Results flagged for a closer look

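The levels of 97 named genes, 12 lists and 3 array measures were searched within each deleted group for an array far from the rest, in 224 searches. A rate of 1 in 20 would give 11.2, but the searches shared arrays and related genes, so this is no strict chance value. The searches found 24 such arrays. Of these, 9 fell on Dot1l-deleted LSK K1272, 7 on LSK K1359, 4 on other deleted LSK arrays and 4 on deleted GMP arrays.

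On LSK K1272, the array stood high for 1500009L16Rik (8.52) and Emc8 (11.46) and low for Car2 (7.14), Cd34 (5.20), Dnajb4 (3.62), Gfi1 (3.84) and Tespa1 (5.90). It was also low for the mean of the stem cell surface genes (5.89) and of the genes lower in control GMP (6.18).

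LSK K1359 stood low for Elane (7.42), Manf (7.89), Ndufa4 (11.42), Thy1 (5.69) and the mean of the oxidative phosphorylation genes (9.68), and high for Far2 (5.81) and Gimap5 (8.22). LSK K1190 was high for Mgam (7.39) and low for Procr (6.99), LSK K1421 was high for Slamf1 (4.22) and LSK K1422 for H2-Eb1 (10.11).

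Among deleted GMP, K1421 was low for Fcgr3 (8.46) and Gimap9 (4.79) and high for Gata1 (4.50), and K1359 was high for Alad (7.51).

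The step from LSK to GMP differed between deleted and control cells by limma's test of the difference for 6 genes. The deleted step minus the control step was 3.39 for Dtx3l, 3.17 for Fbxl12, 3.13 for Smurf2, -2.62 for Wrap53, -3.49 for Emc8 and -3.92 for Fdps.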

How the results depend on the processing

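With 1 array left out, the genes called between deleted GMP and LSK numbered 4 to 110, in controls 1111 to 5531, for the difference of steps 1 to 21, and in both comparisons 3 to 70, against 26, 2180, 6 and 21 with all arrays. In that order, the counts were 51, 5407, 80 and 41 without LSK K1272 and K1359; and 520, 7054, 2416 and 201 with array quality weights, whose fit stopped before it converged and gave LSK K1272 a weight of 0.0985. Averaging GMP K1190 and K1272 gave 5 for deleted cells, 1 for the difference and 4 for both. The upper quartile as a covariate gave 58 and 40 for both, with 50% of the deleted calls higher, against 34.6%. Fitting only the groups compared gave 1, 4439 in controls and 1 for both. The log2 of intensity + 16 gave 15 and 12 for both, with 60.0% higher. Centring on array medians gave 17 for deleted cells, quantile normalization 18 with 50% higher and 13 for both, leaving out dim genes 1417 in controls, and the mean of all probe sets 3 for the difference. Alternatives chosen after seeing the data gave 1554, 6365 and 984 for both without LSK K1272 and GMP K1190 and K1272 (a median shift of 0.25 over all genes); 5548 in controls and 2 for the difference without LSK K1272 and with that GMP pair averaged (30 in deleted cells); and 3075, 6704, 5659 and 887 without LSK K1272 and with array weights. The cause of these shifts was not tested.

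The K numbers shared by LSK and GMP were not taken as pairs in the main fit. Deviations from the group means correlated at 0.27, -0.40, -0.12 and -0.17 for the 4 shared numbers of deleted cells. For the 5 of controls the correlations were -0.07 to 0.03. These values cannot show whether arrays with the same number came from the same animal. With the number as a replicate block, over 18 arrays, the counts were 0, 454, 0 and 0, and as a random block 10, 1337, 2 and 8.

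Some genes near 0 changed sign. Leaving out 1 array gave ranges of -0.82 to 0.25 for Cd34, -0.28 to 0.043 for Dot1l, -0.52 to 0.23 for Hoxa10, -0.60 to 0.70 for Hoxa9, -0.81 to 0.18 for Kit, -1.01 to 0.052 for S100a1, -0.24 to 0.047 for Slamf1 and -0.035 to 0.35 for Smurf2. Cd34 was 0.0075 after quantile normalization, 0.0033 after centring, 0.17 with the upper quartile and 0.56 with the replicate block. Hoxa10 was 0.45 without LSK K1272 and K1359, 0.072 without probe sets of the _s, _x and _a types, 0.0017 as a mean of probe sets, 1.22 with array weights and 0.37 with these and without K1272. Hoxa9 was -0.075 (without both), -0.033 (intensity + 16), -0.22 (mean of probe sets), -0.74 (array weights), -0.87 (these without K1272), -0.084 (without K1272 and the GMP pair) and -0.43 (without K1272, pair averaged). S100a1 was 0.94 by the most variable probe set and without those probe sets, 0.21 as a mean and 0.0073 with weights. Vldlr was 0.27 without those probe sets, 0.10 as a mean, 0.47 with weights and 0.57 with these and without K1272. Fcgr2b was -0.12 without those probe sets. Kifap3 was -0.42 and -0.17 with weights. Without K1272, leaving out or averaging the GMP pair gave 0.23 and 0.058 for Dot1l and -0.30 and -0.12 for Smurf2, and leaving it out 0.17 for Slamf1.

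The called genes kept their sign in every alternative run. Alas1 passed in 40 of 41, Vamp5 in 37, Trem3 in 36, Ctla2a in 38 of 40 and Cst7 in 34, but Car1 and Fgf1 in 16. Array number and the pair of close GMP arrays limit these counts.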
